A study of Mus musculus with 32 samples.

Results

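T and B lymphocytes recognise antigen through receptors that vary from clone to clone and that signal through invariant chains. In T cells these chains include CD3δ, CD3ε and CD3γ, encoded by Cd3d, Cd3e and Cd3g, while the coreceptors CD4 and CD8α, encoded by Cd4 and Cd8a, separate helper from cytotoxic cells. In B cells, Cd79a and Cd79b encode the signalling chains of the B cell receptor, and Ms4a1 encodes CD20, a surface protein that plasma cells lose. Ptprc encodes CD45, a phosphatase of nearly all white blood cells, macrophages included. Lymphocytes are sparse in healthy kidney cortex and gather between the tubules in many chronic kidney diseases.

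The members described here are these 9 genes, taken by symbol from a table of raw counts for 32544 genes, and all 9 were found. Poly(A) RNA of kidney cortex was sequenced in 1 library from each of 32 mice, 25 weeks old, of the strain C57BL/6J-Col4a3tm1Dec. Alport mice (Col4a3-/-) lack a chain of the type IV collagen of the glomerular basement membrane, and the control mice (Col4a3+/-) also carry 1 disrupted copy of the gene. Mice of both sexes received vehicle, a purified diet, or nicotinamide riboside (NR), a precursor of NAD+, mixed into that diet. Each of the 8 combinations of sex, genotype and treatment held 4 mice, which are named below by group and replicate number. Total counts per library ranged from 16621944 to 27778797, with a median of 22071395.

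Levels are given as CPM, the usual unit of counts relative to all counts of the library, with library sizes scaled by the TMM method over the 32 mice. The tissue label was checked against markers of tubule and podocyte: the 12 listed genes summed to 17268 ± 703 CPM in vehicle-treated male controls (SD, n = 4), with the phosphate transporter Slc34a1 the most abundant, and none of the 12 was at 0 in all mice. In bulk RNA, a change in the number of lymphocytes and a change in RNA per lymphocyte cannot be told apart.

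Several of the markers were close to the detection floor in control kidneys. The floor was set at 3 counts, which corresponds to 0.108 to 0.180 CPM depending on the library, and it covers counting error only. Of the 144 values of the 9 genes in 16 control mice, 11 were at or below the floor and 4 of these were 0. In the 16 Alport mice, 1 value was at or below the floor and 0 were at 0.

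The T cell chains Cd3e and Cd3g had the fewest counts. Cd3g had a median of 6 counts in controls (range 0 to 28), with 3 mice at 0, 6 at or below the floor and 13 of 16 under 10 counts. Cd3e had a median of 7.5 counts (0 to 29), with 1 mouse at 0 and 10 of 16 under 10 counts. A ratio to such control levels is therefore imprecise.

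B cell markers were little higher in controls. Ms4a1 had a median of 10.5 counts (1 to 33), Cd79a of 11 (4 to 21) and Cd79b of 12 (3 to 25). The coreceptors and Cd3d lay further from the floor, with medians of 18.5 counts for Cd4 (8 to 50), 33 for Cd8a (10 to 52) and 35.5 for Cd3d (4 to 75). Ptprc, which is not confined to lymphocytes, had a median of 205 counts (156 to 475) and was the 1 member far above the floor in every mouse.

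Levels of different genes were compared per kilobase of exon. The length was the union of all annotated exons of a gene, from 1431 bases for Cd79b to 18313 for Ptprc. It can exceed the length of a single mRNA, and the order of the genes depends on it. On that scale, Cd3d had the highest mean in the 16 controls, 1.02 CPM per kb, followed by Ptprc at 0.588, Cd79b at 0.444, Cd8a at 0.426, Cd79a at 0.387 and Cd4 at 0.248. Cd3e at 0.107, Cd3g at 0.0979 and Ms4a1 at 0.0807 were lowest. Although CD3δ, CD3ε and CD3γ are parts of the same complex, Cd3d mRNA was thus well above that of the other chains in controls. In the 16 Alport mice, Ptprc had the highest mean at 2.06 CPM per kb and Cd3d was next at 1.97, Cd79b followed at 1.05 and Ms4a1 remained lowest at 0.139.

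**Figure D1:**
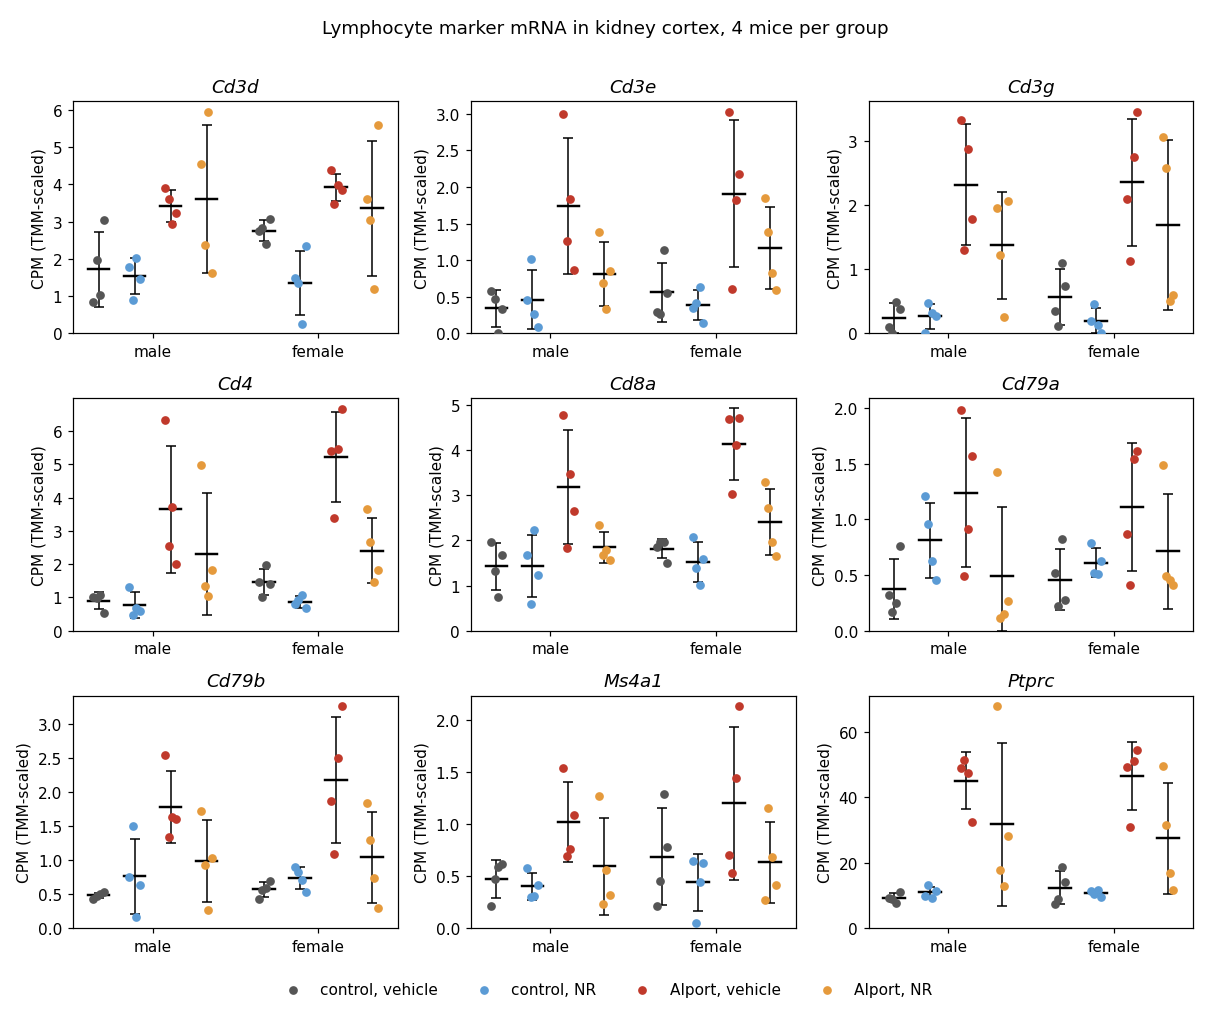
Levels of the 9 lymphocyte and leukocyte marker genes in CPM (y axis, linear, from 0) by sex (x axis) for the 4 combinations of genotype and treatment. Each point is 1 mouse, the bar is the mean and the whiskers are the SD of 4 mice. Vehicle-treated Alport mice have the highest group means for 8 genes in males and for all 9 in females, and for Ptprc their lowest mouse, at 31.1 CPM, lies above the highest control at 18.6 CPM.

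The first comparison asks which markers differ between Alport and control kidneys on vehicle. All 9 markers rose in male Alport mice and 7 of 9 rose in females, where Cd79a and Ms4a1 did not pass the test. Between female and male controls on vehicle, Cd3e, Cd3g and Cd79a failed the filter on low counts that precedes each test. They could thus be tested here only because of the Alport mice, and the counts of markers carry that limit. Ms4a1 failed the filter between NR-treated and vehicle-treated male controls. Ptprc rose 5.20-fold in males and 3.88-fold in females, the T cell genes Cd3e, Cd3g and Cd4 rose 3.44- to 10-fold over both sexes, and Cd79b rose 3.93-fold in males and 3.92-fold in females. The 10-fold value is that of Cd3g in males, whose controls had 0 to 10 counts, and is imprecise. Cd8a rose less, 2.38-fold and 2.33-fold, and Cd3d least, 2.08-fold and 1.46-fold. Across the genome many genes changed: of the genes tested with edgeR at an adjusted p under 0.05, 26.8% were higher in male Alport mice (4093 of 15286) and 24.0% in female Alport mice (3768 of 15709).

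For Ptprc, the 4 vehicle-treated male Alport mice had 49.1, 51.6, 47.3 and 32.4 CPM and the 4 male controls 9.19, 8.85, 7.69 and 11 CPM. In females the values were 49.4, 31.1, 51.2 and 54.5 CPM in Alport mice against 7.45, 9.01, 18.6 and 14.0 CPM in controls. The groups did not overlap in either sex, and female control mouse 3, at 18.6 CPM, was the highest control. The log2 fold change was 2.38 in males (SE 0.16, adjusted p = 3.63e-07, edgeR) and 1.95 in females (SE 0.27, adjusted p = 0.000291).

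Cd3g, which encodes the γ chain of CD3, had 3.32, 1.30, 2.86 and 1.79 CPM in vehicle-treated male Alport mice. Male controls had 0.106, 0, 0.493 and 0.381 CPM. Every Alport male was thus above every control, although 2 of the 4 controls were at or below the floor. In females, Alport mice had 2.09, 1.13, 2.74 and 3.44 CPM and controls 0.343, 0.113, 1.10 and 0.731 CPM, again without overlap, although Alport mouse 2 was close to control mouse 3. In log2 terms Cd3g rose by 3.32 in males (SE 0.60, adjusted p = 0.000661) and 2.07 in females (SE 0.54, adjusted p = 0.00924).

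Cd3e, for the ε chain, had 3.0, 1.26, 1.83 and 0.871 CPM in male Alport mice and 0.585, 0.470, 0 and 0.333 CPM in male controls. Female Alport mice had 3.02, 0.603, 1.82 and 2.18 CPM, and female controls 0.30, 0.263, 1.14 and 0.549 CPM. Males separated completely, whereas in females Alport mouse 2 fell within the range of the controls because control mouse 3 was high. Cd3e had a log2 fold change of 2.40 in males (SE 0.59, adjusted p = 0.00517) and 1.78 in females (SE 0.54, adjusted p = 0.0205). The call in females was lost without Alport mouse 1 (adjusted p = 0.0669), control mouse 1 (0.0588) or control mouse 2 (0.0591), and the log2 fold change was 2.41 without control mouse 3.

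Cd4, the helper coreceptor, had 6.32, 2.56, 3.70 and 2.0 CPM in male Alport mice and 1.01, 0.983, 1.09 and 0.523 CPM in male controls. In females it had 5.40, 3.39, 5.45 and 6.66 CPM in Alport mice and 1.46, 1.01, 1.96 and 1.42 CPM in controls. Neither sex overlapped, and Cd4 had the smallest adjusted p in females of the T cell genes among the members. Its log2 fold change was 2.10 in males (SE 0.38, adjusted p = 0.000699) and 1.87 in females (SE 0.26, adjusted p = 0.000278).

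Cd8a, the α chain of the cytotoxic coreceptor, ranged from 1.83 to 4.78 CPM in male Alport mice and from 0.740 to 1.97 CPM in male controls. The 2 ranges overlapped through Alport mouse 2 and control mouse 1. In females the range was 3.02 to 4.70 CPM in Alport mice and 1.51 to 1.96 CPM in controls, without overlap. Log2 fold changes were 1.25 (SE 0.35, adjusted p = 0.0101) and 1.22 (SE 0.19, adjusted p = 0.00061) in males and females.

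Cd3d differed from the other chains of its complex. It ranged from 2.94 to 3.89 CPM in male Alport mice and from 0.850 to 3.05 CPM in male controls, and from 3.47 to 4.37 CPM in female Alport mice against 2.39 to 3.06 CPM in female controls. The female groups did not overlap although the difference was small, since their spread was only 0.372 and 0.277 CPM (SD). Cd3d had a log2 fold change of 1.06 in males (SE 0.34, adjusted p = 0.0216) and 0.55 in females (SE 0.15, adjusted p = 0.0132). The male call was lost without Alport mouse 1 (adjusted p = 0.0554), control mouse 1 (0.0555) or control mouse 3 (0.0598), and in 1 fit of all 32 mice Cd3d was not called in males (0.0678) or females (0.374).

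Among the B cell members, Cd79b had the clearest difference. Its values were 2.55, 1.34, 1.64 and 1.61 CPM in male Alport mice and 0.425, 0.470, 0.493 and 0.523 CPM in male controls. Female Alport mice had 1.86, 1.09, 2.50 and 3.27 CPM, and female controls 0.428, 0.563, 0.588 and 0.686 CPM. No control of either sex reached the lowest Alport mouse of that sex. Its log2 fold change was 1.97 in both sexes (SE 0.30, adjusted p = 0.000205 in males and SE 0.35, adjusted p = 0.00123 in females).

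Cd79a, the partner of Cd79b, overlapped between groups in both sexes. Male Alport mice had 1.99, 0.487, 0.916 and 1.57 CPM and male controls 0.319, 0.171, 0.247 and 0.761 CPM. Female Alport mice had 0.867, 0.415, 1.54 and 1.61 CPM and female controls 0.514, 0.225, 0.823 and 0.274 CPM. In males it passed the test, with a log2 fold change of 1.80 (SE 0.53, adjusted p = 0.0139), and in females it did not, with 1.29 (SE 0.51, adjusted p = 0.0597). Without male control mouse 4 the male log2 fold change was 2.41. The female value was within the threshold without Alport mouse 2 (adjusted p = 0.0164), without control mouse 3 (0.0258) or with DESeq2 (0.0405).

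Ms4a1, for CD20, had the weakest evidence of the 9 genes. Male Alport mice had 1.54, 0.690, 0.763 and 1.09 CPM and male controls 0.213, 0.470, 0.592 and 0.618 CPM, so that the groups did not overlap but lay close together. Female Alport mice ranged from 0.528 to 2.13 CPM and female controls from 0.214 to 1.29 CPM. Ms4a1 had a log2 fold change of 1.17 in males (SE 0.39, adjusted p = 0.0261) and 0.82 in females (SE 0.56, adjusted p = 0.254). The male call was lost without Alport mouse 1 (adjusted p = 0.0955), control mouse 1 (0.0709) or control mouse 2 (0.0579), and in 1 fit of all 32 mice (0.127).

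In each sex, 6 of 9 markers had all 4 Alport mice above all 4 controls, beside 22.1% of the genes tested in males and 20.7% in females. Cd3g, Cd4, Cd79b and Ptprc did so in both sexes. The median log2 fold change of the 9 genes was 1.97 in males and 1.78 in females, and the median over all genes tested was 0.00 in both. Whether the rise differed between the sexes was tested as the interaction of sex and genotype over the 16 vehicle-treated mice. With edgeR, 0 of 9 markers passed, 0 were under an unadjusted p of 0.05, DESeq2 and limma-voom called 0, and 0.532% of all genes passed. The interaction estimate was below 0 for all 9 genes with edgeR, and the smallest adjusted p was 0.647, but the direction did not hold for every gene. Cd79b was above 0 with DESeq2, with RLE size factors and, like Cd8a, in 1 fit of all 32 mice. With 1 mouse left out, Cd4 reached 0.13 and Cd8a 0.20 without male Alport mouse 1, Ms4a1 0.15 without female control mouse 3, and Cd79b up to 0.18 without male Alport mouse 1, female Alport mouse 1 or 2, female control mouse 4 or male control mouse 1. Cd8a was also above 0 without female Alport mouse 2 or male control mouse 3. All genes called for this interaction were 86, against 260 with DESeq2, 46 with limma-voom, 52 with RLE size factors and 5 in 1 fit of all 32 mice. With 1 Alport mouse left out they were 47, 53 and 23 for female mouse 1, 3 or 4 and 27, 45 and 40 for male mouse 1, 2 or 3, and with 1 control left out 57, 30 and 25 for female mouse 1, 3 or 4 and 34, 32 and 41 for male mouse 1, 2 or 4.

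**Figure D2:**
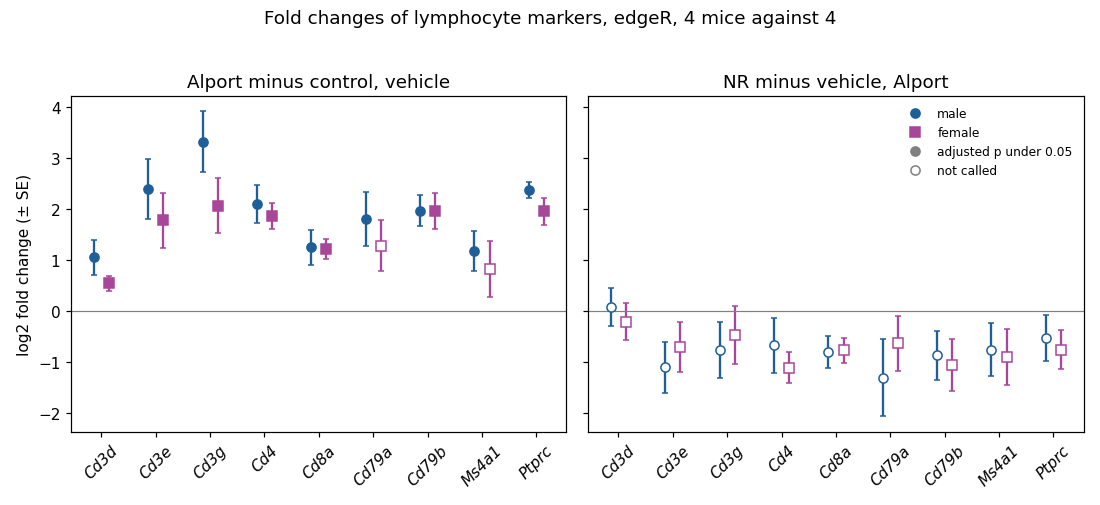
Log2 fold changes (y axis) of the 9 genes (x axis) in Alport against control mice on vehicle and in NR-treated against vehicle-treated Alport mice, by sex. Points are edgeR estimates from 4 mice against 4 with their SE, filled where the adjusted p is under 0.05. In the comparison with control mice 16 of 18 points are filled, and none is filled for NR, where 17 of 18 lie below 0.

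The second comparison asks whether NR changed the markers in Alport mice. Mean levels on NR were lower than on vehicle for 8 of 9 markers in males and for 9 of 9 in females, but no marker passed the test in either sex. Log2 fold changes were -1.31 to -0.52 for the 8 markers in males, with Cd3d at 0.08, and -1.11 to -0.21 in females. In males edgeR called 0 of 9, with 1 gene (Cd8a) at an unadjusted p under 0.05, and DESeq2 and limma-voom also called 0. In females edgeR called 0 of 9, with Cd4 and Cd8a at an unadjusted p under 0.05, limma-voom called 0 and DESeq2 called 1, Cd4 (adjusted p = 0.0168).

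The number of genes of any kind that passed depended on the tool. In males 0% of the 15500 genes tested were lower on NR at an adjusted p under 0.05, since edgeR and limma-voom called 0 genes in either direction, beside 785 at an unadjusted p under 0.05 and 62 called by DESeq2. In males 1 fit of all 32 mice called 88, and edgeR called 380 without NR-treated mouse 1 and 1 without NR-treated mouse 3. In females 0.0891% were lower, 14 of 15712, and in either direction edgeR called 75, beside 69 with limma-voom, 728 with DESeq2, 116 with no low-count filter and 253 in 1 fit of all 32 mice. Single mice moved these 75 as well, to 166, 35 and 119 without NR-treated mouse 1, 3 or 4 and to 11, 15 and 9 without vehicle-treated mouse 1, 3 or 4. No marker had all 4 NR-treated mice below all 4 vehicle-treated mice, whereas 1.45% of genes in males and 4.05% in females did.

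NR-treated Alport mice were spread widely. Ptprc was at 68.1, 17.8, 12.9 and 28.1 CPM in NR-treated males, against 32.4 to 51.6 CPM on vehicle. Male mouse 1 was thus above every other mouse of the study for Ptprc, and its 3 group mates were below every vehicle-treated male Alport mouse. NR-treated females had 49.6, 31.7, 16.8 and 11.8 CPM, against 31.1 to 54.5 CPM on vehicle, so that mice 1 and 2 lay within the vehicle range and mice 3 and 4 within that of vehicle-treated female controls. The log2 fold change was -0.52 in males (SE 0.45, adjusted p = 0.939) and -0.76 in females (SE 0.38, adjusted p = 0.344). Without male mouse 1 the male value was -1.21 (adjusted p = 0.0537).

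Cd4 had 4.99, 1.33, 1.04 and 1.84 CPM in NR-treated males and 3.64, 2.67, 1.47 and 1.84 CPM in NR-treated females. Male mouse 1 was again the highest of its group and lay within the vehicle-treated range. The log2 fold change was -0.67 in males (SE 0.54, adjusted p = 0.939) and -1.11 in females (SE 0.31, adjusted p = 0.143), and without male mouse 1 the male value was -1.39, still not called. Cd8a had 2.34, 1.68, 1.78 and 1.57 CPM in males and 3.28, 2.72, 1.97 and 1.65 CPM in females. Its log2 fold changes were -0.80 in males (SE 0.32, adjusted p = 0.939) and -0.77 in females (SE 0.25, adjusted p = 0.195).

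For the CD3 chains the mice did not fall in the same order. Cd3e had 1.38, 0.695, 0.334 and 0.851 CPM in NR-treated males and 1.84, 1.38, 0.825 and 0.599 CPM in NR-treated females. Cd3g had 1.96, 1.22, 0.260 and 2.06 CPM in males and 3.06, 2.58, 0.504 and 0.599 CPM in females. Both genes were lowest in male mouse 3 and low in female mouse 4. Cd3d, in contrast, had 4.53, 2.37, 5.94 and 1.61 CPM in males and 3.60, 3.03, 1.19 and 5.58 CPM in females. The same 2 mice, male mouse 3 and female mouse 4, had the highest Cd3d of their groups.

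B cell markers on NR also differed between mice of a group. Cd79b had 1.73, 0.927, 0.260 and 1.03 CPM in NR-treated males and 1.84, 1.29, 0.733 and 0.30 CPM in NR-treated females. Cd79a had 1.42, 0.116, 0.149 and 0.269 CPM in males and 1.48, 0.490, 0.458 and 0.412 CPM in females, with mouse 1 far above its group mates in both sexes. Ms4a1 ranged from 0.232 to 1.27 CPM in males and from 0.270 to 1.16 CPM in females. Log2 fold changes against vehicle were -1.31 to -0.63 for these 3 genes over both sexes, with SE of 0.48 to 0.76 and adjusted p of 0.322 to 0.939. Without NR-treated male mouse 1 the male values were -2.76 for Cd79a and -1.43 for Ms4a1, and without NR-treated female mouse 1 the female value of Cd79a was -1.27, none of them called.

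When both sexes were fitted together with sex as a term, over the 16 Alport mice, all 9 estimates were below 0 and 5 of 9 were at an unadjusted p under 0.05. At an adjusted p under 0.05 edgeR called 0 of 9, limma-voom 0 and DESeq2 1, beside 0.420% of all genes that were lower on NR (68 of 16189). In either direction edgeR called 239 genes, limma-voom 254, DESeq2 902 and 1 fit of all 32 mice 1016. Cd8a was nearest the threshold, with a log2 fold change of -0.77 (SE 0.20, adjusted p = 0.0598), from a mean of 3.66 CPM on vehicle to 2.12 CPM on NR. Its adjusted p over the other tools and fits included 0.00769 with DESeq2 and 0.0338 in 1 fit of all 32 mice, and it passed without NR-treated female mouse 1 (0.0402) or vehicle-treated male mouse 2 (0.0348). Cd4 had -0.89 (SE 0.32, adjusted p = 0.158), Cd79b -0.96 (SE 0.36, adjusted p = 0.173), Cd3e -0.89 (SE 0.36, adjusted p = 0.199) and Ms4a1 -0.83 (SE 0.39, adjusted p = 0.26).

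A single mouse moved this result most. Without NR-treated male mouse 1, 4 of 9 markers passed in the fit of both sexes: Cd4 fell by 1.22 (adjusted p = 0.00919), Cd8a by 0.83 (0.0161), Ptprc by 0.95 (0.0269) and Cd79b by 1.15 (0.0432) on the log2 scale. The number of genes called over the genome went from 239 to 2535. It was 121, 120 and 136 without vehicle-treated female mouse 1, 3 or 4, 150, 138 and 144 without vehicle-treated male mouse 1, 2 or 3, 139 and 137 without NR-treated female mouse 3 or 4, and 144 without NR-treated male mouse 2. In the fit of males alone without this mouse, 0 of 9 markers and 380 genes passed. The same mouse had the lowest summed level of tubule and podocyte markers of all 32 mice, 6371 CPM. The interaction of sex and NR was not detected for any marker: 0 of 9 passed with edgeR, DESeq2 and limma-voom, 0 were at an unadjusted p under 0.05, and 0% of 16189 genes passed with edgeR, where 363 were at an unadjusted p under 0.05 and DESeq2 called 1.

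The third comparison asks for an effect of NR in control mice, where several markers are near the floor. In male controls 6 of 9 markers passed the filter on low counts and 0 of 6 were called by edgeR, DESeq2 or limma-voom, with 0 at an unadjusted p under 0.05, beside 4.53% of genes called in either direction. In female controls 7 of 9 passed the filter and 0 of 7 were called by any of these tools, with Cd3d and Cd4 at an unadjusted p under 0.05, beside 6.18% of genes. In females Cd3d had the largest estimate in absolute value, with 1.48, 1.34, 0.255 and 2.35 CPM on NR and 2.74, 2.82, 2.39 and 3.06 CPM on vehicle, a log2 fold change of -1.0 (SE 0.39, adjusted p = 0.148). It was the 1 marker of 9 with all NR-treated female controls below all vehicle-treated ones, a pattern of 6.03% of genes in females, and 0 of 9 markers had it in males, beside 6.01% of genes.

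The numbers of all genes called in these controls were not stable. In males 666 genes were called, against 1654 with DESeq2, and the count was 230, 184 and 1886 without NR-treated mouse 1, 3 or 4 and 74, 114, 429 and 146 without vehicle-treated mouse 1, 2, 3 or 4. In females 924 were called, against 1493 with DESeq2 and 18 in 1 fit of all 32 mice, and the count was 395, 440 and 502 without NR-treated mouse 1, 3 or 4 and 505, 461 and 575 without vehicle-treated mouse 2, 3 or 4.

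Female Cd4 had a log2 fold change of -0.77 (SE 0.30, adjusted p = 0.144), from 1.46 ± 0.388 CPM to 0.868 ± 0.177 CPM (SD, n = 4). In males the largest estimate was that of Cd79a, 1.10 (SE 0.51, adjusted p = 0.224), from 0.374 ± 0.265 CPM to 0.813 ± 0.338 CPM, and it was 1.71 without vehicle-treated mouse 4. Markers that failed the filter were compared with an exact two-sided permutation test, whose smallest possible p with 4 against 4 mice is 0.0286. In males Cd3e was at 0.347 ± 0.253 CPM on vehicle and 0.458 ± 0.403 CPM on NR (exact p = 0.714), Cd3g gave an exact p of 1 and Ms4a1 of 0.543. In females the exact p was 0.543 for Cd3e and 0.229 for Cd3g.

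Other lists were looked up in these controls after their values had been seen. In males 3 of 20 trafficking genes rose on NR, Vcam1 (log2 fold change 1.26, adjusted p = 0.0146), Tnfsf13b (1.94, 0.0202) and Cxcl12 (0.67, 0.0228), and 3 of 21 macrophage genes rose, C1qa (1.0, 0.0297), C1qb (0.89, 0.0442) and Cd14 (1.09, 0.0292). Vcam1 encodes an adhesion protein, Tnfsf13b and Cxcl12 encode secreted signals for lymphocytes, C1qa and C1qb chains of a complement protein of macrophages, and Cd14 a co-receptor. Over all genes 451 of 14696 rose. Estimates were above 0 for 18 of 20 and 18 of 21 genes, with medians of 0.48 and 0.75, whereas in females they were above 0 for 7 of 21 and 5 of 21 and 0 were called by edgeR, DESeq2 or limma-voom.

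These male calls depended on the tool and on single mice. DESeq2 called 5 trafficking and 6 macrophage genes, limma-voom 3 and 1, and 1 fit of all 32 mice 1 and 1. Vcam1, with the smallest adjusted p, was lost without vehicle-treated mouse 1 (0.053) or 4 (0.0527) and in 1 fit of all 32 mice (0.129). Without NR-treated mouse 1, 3 or 4 the trafficking count was 1, 1 and 5, and without vehicle-treated mouse 1, 2 or 4 it was 0, 1 and 1. The macrophage count was 6 without NR-treated mouse 4 and 0 without NR-treated mouse 1 or 3 or any 1 of the vehicle-treated mice.

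The fourth comparison sets NR-treated Alport mice against NR-treated controls and asks how far apart the genotypes were on NR. In females Cd3e, Cd3g, Cd4 and Ptprc were higher in Alport mice, 4 of 9 markers, beside 14.4% of genes. Cd3g was 8.53-fold higher (log2 fold change 3.09, SE 0.84, adjusted p = 0.0202), Cd3e 3.13-fold (1.65, SE 0.50, adjusted p = 0.0327), Cd4 2.85-fold (1.51, SE 0.34, adjusted p = 0.00944) and Ptprc 2.62-fold (1.39, SE 0.38, adjusted p = 0.0201). The folds of Cd3g and Cd3e are imprecise. NR-treated female controls had 0 to 9 counts of Cd3g, with 2 mice at or below the floor, and 3 to 10 counts of Cd3e. The B cell markers Cd79a, Cd79b and Ms4a1 had log2 fold changes of 0.24 to 0.54 with adjusted p of 0.466 to 0.739, and Cd79a had -0.40 without Alport mouse 1. The log2 fold change of Cd3g was 3.94 without control mouse 2. For Cd3g and Cd4, 2 of 9 markers, all 4 Alport mice were above all 4 controls, as were 12.9% of genes.

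These female calls depended on single mice or on the tool except for Cd4, which passed without any 1 of the 8. With limma-voom Cd3e (adjusted p = 0.0536) and Ptprc (0.0876) were not called, and in 1 fit of all 32 mice Cd3e was not (0.0771) while Cd3d was (0.0354). Cd3e was lost without NR-treated Alport mouse 1 (adjusted p = 0.0935) or 2 (0.0783) or control mouse 1 (0.0856), 2 (0.0744) or 4 (0.0887). Cd3g was lost without Alport mouse 1 (0.0546) or 2 (0.0537) or control mouse 1 (0.057) or 3 (0.0587). Ptprc was lost without Alport mouse 2 (0.0521) or control mouse 1 (0.0504), 2 (0.0553) or 4 (0.0605), and Cd3d passed without Alport mouse 3 (0.0471).

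In males no marker was called on NR. Of 7 markers tested, edgeR called 0, with Cd3d, Cd4 and Ptprc at an unadjusted p under 0.05, limma-voom called 0 and DESeq2 called Ptprc. Over the genome 0% of 14884 genes were higher in NR-treated male Alport mice by edgeR, which called 0 genes in either direction as did limma-voom, whereas 3214 were at an unadjusted p under 0.05 and DESeq2 called 1381. The result depended on the fit: with no low-count filter 191 genes were called, and 1 fit of all 32 mice called 4565 genes and 4 of 9 markers, among them Cd3d (adjusted p = 0.0401), Cd4 (0.00947) and Ptprc (0.00517). Without Alport mouse 1, 74 genes and 0 markers were called. Ptprc had a log2 fold change of 1.58 (SE 0.45, adjusted p = 0.107) and of 0.88 without that mouse, and 0 of 9 markers separated the groups, beside 7.57% of genes. Cd3g and Ms4a1 failed the filter. Cd3g was at 1.37 ± 0.832 CPM in Alport mice and 0.266 ± 0.199 CPM in controls (SD, n = 4, exact p = 0.114), and Ms4a1 at 0.592 ± 0.471 CPM and 0.400 ± 0.128 CPM (exact p = 0.657).

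Female and male controls on vehicle were compared to show the starting levels of the sexes. Of 6 markers tested 0 were called by edgeR, DESeq2 or limma-voom, beside 31.7% of genes, and Cd4 was at an unadjusted p under 0.05. All 6 estimates were above 0, with higher means in females. Cd4 was at 1.46 ± 0.388 CPM in females and 0.900 ± 0.255 CPM in males (log2 fold change 0.72, SE 0.31, adjusted p = 0.0957). Cd3d was at 2.75 ± 0.277 CPM and 1.72 ± 1.01 CPM (0.69, SE 0.34, adjusted p = 0.144), and it passed without male control mouse 4 (adjusted p = 0.0213). For Cd3e, Cd3g and Cd79a, which failed the filter, the exact p was 0.486, 0.286 and 0.629.

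Ordered by group mean, vehicle-treated Alport mice of both sexes came first for 8 of 9 markers, and the exception was Cd3d. Neighbouring groups in this order mostly differed by less than their spread. For Cd79b the step from vehicle-treated male Alport mice, at 1.79 ± 0.529 CPM, to NR-treated female Alport mice, at 1.04 ± 0.671 CPM, was larger than both SDs. Cd3d had its order of means reversed within males, with 3.61 ± 1.98 CPM in NR-treated and 3.42 ± 0.419 CPM in vehicle-treated Alport mice.

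Summed over the 9 markers, which Ptprc dominates, NR-treated male Alport mice had 87.7, 26.4, 23.2 and 37.6 CPM. Vehicle-treated male Alport mice had 76.4, 64.7, 65.5 and 47.2 CPM, and male controls 12.4 to 18.9 CPM on vehicle. NR-treated female Alport mice had 68.6, 47.0, 24.7 and 23.1 CPM, against 72.4, 44.7, 74.8 and 82.3 CPM on vehicle and 15.3 to 29.9 CPM in vehicle-treated controls. Mice 1 of both NR-treated Alport groups were thus at the level of vehicle-treated Alport mice, and NR-treated female mice 3 and 4 were within the range of the vehicle-treated female controls. Every NR-treated male Alport mouse was above every male control, and the highest male control was at 19.2 CPM on NR.

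The T cell gene Cd3e, the B cell gene Cd79a and Ptprc varied together over the Alport mice. Over the 16 Alport mice, log2 CPM of Cd3e and Cd79a had a Pearson r of 0.764 (permutation p = 0.0006, adjusted over 3 pairs 0.00063) and a Spearman rho of 0.794 (permutation p = 0.00039, adjusted 0.00117). Cd3e and Ptprc had r = 0.819 (permutation p = 0.00013, adjusted 0.00039) and rho = 0.768 (permutation p = 0.00094, adjusted 0.00141). Cd79a and Ptprc had r = 0.764 (permutation p = 0.00063, adjusted 0.00063) and rho = 0.729 (permutation p = 0.00185, adjusted 0.00185). The tests were two-sided.

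The relations were also computed with mice left out and within groups. Without the 2 mice farthest from the median of the first gene, r was 0.757, 0.776 and 0.648 for the 3 pairs in the same order; these were NR-treated male mouse 3 with vehicle-treated female mouse 1 for Cd3e and with NR-treated male mouse 2 for Cd79a. In a check chosen after seeing the data, leaving out any 1 of the 16 mice gave r of 0.702 to 0.841, 0.765 to 0.851 and 0.707 to 0.809, and leaving out NR-treated mouse 1 of both sexes gave 0.764, 0.845 and 0.731. For deviations from the 4 group means it was 0.658, 0.795 and 0.734. Within the 8 males r was 0.768, 0.842 and 0.793, and within the 8 females 0.783, 0.832 and 0.814. Within the 8 NR-treated mice it was 0.819, 0.868 and 0.790, but within the 8 vehicle-treated mice it was 0.538, 0.816 and 0.292, so that Cd79a and Ptprc were only weakly related there. For Cd79a and Ptprc r was also low, 0.260, in the 6 NR-treated mice other than mouse 1 of each sex. Leaving out 1 vehicle-treated mouse moved their r within that treatment to -0.219 without female mouse 2, 0.511 without male mouse 2 and 0.615 without male mouse 4, and that of Cd3e and Cd79a to 0.207 without female mouse 2.

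Cd3d stood apart from this common pattern. Its r with each of the 8 other markers over the 16 Alport mice was -0.05 to 0.314, given as a description, while the 28 pairs of the other markers had r of 0.414 to 0.910 with a median of 0.786. Cd3g and Cd79b were the most alike pair, at 0.910. Cd3e and Cd3g, neighbours of Cd3d in the genome and in the receptor, had r of 0.0816 and -0.02 with it. The 5 genes most like Cd3d, looked up after these values had been seen, were Zkscan17 (r = 0.946), Haus6 (0.875), Tbc1d8 (0.869), Sla2 (0.867) and Gabre (0.861). Sla2 encodes an adaptor of lymphocyte receptors, and none of the 5 is a chain of the T cell receptor.

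The genes most like Cd3e, Cd79a and Ptprc were sought among 16180 genes outside the members by r of log2 CPM over the 16 Alport mice. For Cd3e they were Gimap7 (r = 0.897), a GTPase of lymphocytes, Lck (0.890), the kinase that phosphorylates the CD3 chains, the T cell surface protein Thy1 (0.887), the chemokine receptor Cxcr3 (0.883) and the fucosyltransferase Fut4 (0.882). For Cd79a they were A530099J19Rik (r = 0.887), Lax1 (0.878), an adaptor of lymphocyte receptors, Clec2i (0.871), the Rac activator Def6 (0.870) and Gm7173 (0.867). For Ptprc they were Lcp1 (r = 0.989), Coro1a (0.988), Hcls1 (0.987), Nckap1l (0.987) and Themis2 (0.985). The genes nearest Ptprc act on the actin cytoskeleton or signalling of blood cells in general.

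Other genes of T cells moved with the members. Of 30 genes of the T cell receptor and T cell signalling, 21 of 25 tested rose and 2 fell in male Alport mice on vehicle, with a median log2 fold change of 2.12, and 21 of 29 rose and 2 fell in females, with a median of 1.73, beside 26.8% of all genes higher in males and 24.0% in females. The filter lets a gene in when 1 of the groups expresses it, and between NR-treated and vehicle-treated male controls 16 of the 30 were tested. With at least 10 counts required in every mouse, 8 were called in either direction in males and 10 in females. Over all genes, 6899 and 6619 were called in either direction under that filter. The number of list genes tested under it is not given here. Cd6, a surface receptor of T cells, had 1 to 5 counts in male controls and 31 to 80 counts in male Alport mice, so that no fold is given there (adjusted p = 5.39e-05), and rose 5.69-fold in females (2.51, SE 0.48, adjusted p = 0.00178). Il7r, the receptor chain for interleukin 7, rose 9.96-fold (3.32, SE 0.33, adjusted p = 7.93e-06) and 9.11-fold (3.19, SE 0.33, adjusted p = 6.9e-05). Pdcd1, for the inhibitory receptor PD-1, had 0 to 1 counts in male controls on vehicle and 12 to 60 counts in male Alport mice, again with no fold given, and it passed the test in both sexes (adjusted p = 0.000401 and 0.00594). Without female control mouse 3 the log2 fold change of Cd6 in females was 3.41.

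Trac, the constant region of the T cell receptor α chain, was at 0.274 ± 0.0692 CPM in male controls and 1.6 ± 0.159 CPM in male Alport mice (SD, n = 4), and rose 6.08-fold (adjusted p = 2.63e-05) and 3.31-fold in females (adjusted p = 0.0188). The female call was lost without Alport mouse 4 (adjusted p = 0.0558) or control mouse 1 (0.0549), 2 (0.0516) or 4 (0.0536), and the log2 fold change was 2.68 without control mouse 3. Cd247, for the ζ chain, rose 4.26-fold (adjusted p = 0.00155) and 3.41-fold (adjusted p = 0.0143). Bcl11b, a transcription factor of T cells named after its values were seen, fell in both sexes, by 0.65 on the log2 scale in males (adjusted p = 0.00194) and by 0.71 in females (adjusted p = 0.000631).

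In Alport mice edgeR called no gene of the T cell list on NR in either sex or in the fit of both sexes. DESeq2 called 1 in Alport females. In the fit of both sexes 28 of 30 estimates were below 0 and the median was -0.70. For both sexes limma-voom called 0, DESeq2 2 and 1 fit of all 32 mice 1. The genes with the smallest p in the edgeR fit of both sexes were Cd247, with a log2 fold change of -0.90 (SE 0.27, adjusted p = 0.0993), and Trac, with -1.21 (SE 0.38, adjusted p = 0.11). Without NR-treated male mouse 1, 13 of the T cell genes passed. For comparison, the median log2 fold change over all genes in the same fit was 0.02. In female controls 1 of 17 tested genes of the T cell list fell on NR with edgeR, beside 340 of 14951 genes. DESeq2 called 2 of the list there and 1 fit of all 32 mice 0.

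Genes of B cells and plasma cells rose as well. Of 24 listed, 14 of 18 tested rose in male Alport mice on vehicle (median log2 fold change 2.50) and 13 of 21 rose in females (median 1.82), beside the 26.8% and 24.0% of all genes that were higher, with 0 of the list falling in either sex by edgeR. With at least 10 counts required in every mouse, 6 were called in males and 8 in females. Over all genes, 6899 and 6619 were called in either direction under that filter. How many of the list were tested under it is not given here. Ighm, the heavy chain of immunoglobulin M, had 426, 14.4, 22.2 and 75.4 CPM in vehicle-treated male Alport mice, and 3.25 to 3.90 CPM in male controls. It had 17.5, 14.7, 83.9 and 181 CPM in vehicle-treated female Alport mice and 3.08, 3.87, 22.4 and 6.22 CPM in female controls, so that control mouse 3 was above Alport mice 1 and 2. It rose 40.1-fold in males (log2 fold change 5.32, SE 1.01, adjusted p = 0.000942) and 8.46-fold in females (3.08, SE 0.87, adjusted p = 0.0146), where limma-voom did not call it (adjusted p = 0.0651). Male Alport mouse 1 alone held 10523 of its counts, and without it the male log2 fold change was 3.47. In females it was 2.14 without Alport mouse 4 and 4.13 without control mouse 3.

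Igkc, the constant region of the κ light chain, had 163, 28, 31 and 52.0 CPM in vehicle-treated male and 45.6, 22.9, 117 and 142 CPM in vehicle-treated female Alport mice. It rose 19.0-fold in males (log2 fold change 4.25, SE 0.61, adjusted p = 0.000127) and 11.9-fold in females (3.57, SE 0.62, adjusted p = 0.00101). Spib, a transcription factor of B cells and of plasmacytoid dendritic cells, rose 16-fold (4.00, SE 0.39, adjusted p = 7.29e-06) and 7.82-fold (2.97, SE 0.50, adjusted p = 0.000822). Without male Alport mouse 1 the male log2 fold change of Igkc was 3.36. Without female control mouse 3 the female values were 4.24 for Igkc and 4.01 for Spib.

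On NR, all 23 tested B cell and plasma cell genes had estimates below 0 in the fit of both sexes, with a median of -0.89 against 0.02 over all genes, and 4 of 23 fell with edgeR, as did 0.420% of all genes, beside 7 called by DESeq2 and 3 by limma-voom. Igkc fell by 2.67 on the log2 scale (SE 0.54, adjusted p = 0.02), with 34.0, 9.27, 2.12 and 7.79 CPM in NR-treated males and 10.4, 11.1, 15.3 and 4.72 CPM in NR-treated females. In Alport females no NR-treated mouse reached the lowest vehicle-treated mouse, a pattern of 4.05% of genes. Spib fell by 1.62 (SE 0.35, adjusted p = 0.0293), Jchain, which joins immunoglobulin M and A into polymers, by 2.25 (SE 0.54, adjusted p = 0.0479), and Ighm by 3.08 (SE 0.74, adjusted p = 0.0495). Jchain, named after its values were seen, was also the 1 gene of the list called in the fit of females alone, where it fell by 2.70 (SE 0.40, adjusted p = 0.0183), beside 5 genes called by DESeq2 and 0 by limma-voom.

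These calls were close to the threshold. Igkc was lost without vehicle-treated male mouse 1 (log2 fold change -2.30, adjusted p = 0.0616) and held without each of the other 15 mice. Ighm was lost in 13 of the 16 fits that left out 1 mouse, with adjusted p of up to 0.123, Jchain in 14 with up to 0.126, and Spib in 9 with up to 0.071. With limma-voom Ighm was lost as well (log2 fold change -2.49, adjusted p = 0.123). With at least 10 counts required in every mouse it was lost too (0.0503), and the list had 2 calls. The log2 fold change of Ighm was -2.21 without vehicle-treated male mouse 1, and that of Jchain -2.99 without NR-treated male mouse 1. Without vehicle-treated male mouse 1 the list had 0 calls, and without NR-treated male mouse 1 it had 13. In females Jchain was lost in 5 of 8 such fits, with adjusted p of 0.0531 to 0.0724, and with limma-voom (0.0848), while 2 genes of the list passed there without NR-treated mouse 1 or vehicle-treated mouse 2.

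Of 14 natural killer and cytotoxic genes, 5 were tested and 4 of 5 rose in each sex in Alport mice on vehicle, against 26.8% of all genes in males and 24.0% in females. The number depended on the filter: 9 were called in males with no low-count filter and 7 in females in 1 fit of all 32 mice, but with at least 10 counts required in every mouse 1 was called in males and 0 in females. Over all genes, 6899 and 6619 were called in either direction under that stricter filter. Klrd1, a chain of the CD94 receptor, rose in males from 0 to 6 counts in controls to 28 to 33 counts (adjusted p = 0.000411) and 2.81-fold in females (0.0317), Klrk1, for the receptor NKG2D, rose 5.99-fold (0.000148) and 3.75-fold (0.00258), the protease Ctsw rose 3.49-fold (0.000567) and 2.92-fold (0.00658), and the granule protein Nkg7 rose 3.21-fold (0.0252) and 2.66-fold (0.0148). The female call of Klrd1 was lost without Alport mouse 1 (0.0667), 3 (0.0589) or 4 (0.0913) or control mouse 1 (0.0835), 2 (0.0787) or 4 (0.0637). The male call of Nkg7 was lost without Alport mouse 1 (0.073) or 3 (0.0606) or control mouse 1 (0.0719) or 3 (0.0513). On NR, 0 of 7 tested passed in the fit of both sexes with edgeR, DESeq2 or limma-voom, and Ctsw, at -0.64 (adjusted p = 0.246), and Nkg7, at -0.54 (adjusted p = 0.288), had the smallest p. Without NR-treated male mouse 1, 1 gene passed.

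Genes of lymphocyte trafficking and lymphoid tissue rose as well, 20 of 22 tested in males and 19 of 23 in females, of 26 listed. Over all genes 26.8% and 24.0% were higher. With at least 10 counts required in every mouse, 13 of the list were called in males, beside 6899 of all genes in either direction. Vcam1, an adhesion protein for lymphocytes that injured tubule cells also make, rose from 8.67 ± 1.38 to 268 ± 57.6 CPM in males (SD, n = 4, log2 fold change 5.03, adjusted p = 6.07e-09) and from 13.9 ± 6.43 to 286 ± 74.4 CPM in females (4.39, adjusted p = 1.37e-05). Tnfsf13b, for the B cell survival factor BAFF, rose 17.3-fold (adjusted p = 8.1e-07) and 7.09-fold (9.53e-05).

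On NR, 2 of 24 trafficking genes fell in the fit of both sexes, beside 0.420% of all genes, where 1 fit of all 32 mice called 4 and the filter of 10 counts in every mouse left 1. Ccl5, a chemokine for T cells that activated T cells also make, had 6.12, 7.26, 5.65 and 3.48 CPM in Alport males on vehicle and 3.07, 1.04, 1.30 and 1.34 CPM in Alport males on NR. Alport females had 7.32, 4.71, 6.03 and 5.62 CPM on vehicle and 3.73, 2.45, 1.65 and 2.13 CPM on NR. Every NR-treated Alport mouse was below every vehicle-treated Alport mouse of its sex, as for 1.45% of genes in males and 4.05% in females. Ccl5 fell by 1.47 on the log2 scale (SE 0.23, adjusted p = 0.00393) and passed in each of the 16 fits without 1 mouse, at -1.63 to -1.39. Cxcl13, the chemokine that draws B cells into follicles, fell by 1.47 (SE 0.31, adjusted p = 0.0234), from 1.81 ± 0.419 to 0.826 ± 0.665 CPM in males and from 2.97 ± 1.15 to 0.825 ± 0.169 CPM in females (SD, n = 4), and it was lost in 7 of 16 such fits with adjusted p of 0.05 to 0.0587. Within 1 sex edgeR called neither gene: Ccl5 had adjusted p of 0.524 in males and 0.0787 in females, and Cxcl13 of 0.939 and 0.0554. Other fits called trafficking genes in females, DESeq2 2, 1 fit of all 32 mice 2, no low-count filter 1 and at least 10 counts in every mouse 1. In females 1 trafficking gene passed without NR-treated mouse 1 or vehicle-treated mouse 2, and in the fit of both sexes 10 passed without NR-treated male mouse 1.

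Markers of other cells that the cortex samples could hold moved with the lymphocyte markers. Of 24 genes of macrophages, dendritic cells and neutrophils, 18 of 21 tested rose in each sex in Alport mice on vehicle, against 26.8% of all genes in males and 24.0% in females, and their summed level was 867 ± 99.4 CPM in male Alport mice against 196 ± 11.4 CPM in controls, and 847 ± 177 against 246 ± 41.2 CPM in females. In NR-treated male Alport mice the sum was 1387, 480, 346 and 571 CPM, and in NR-treated females 850, 653, 376 and 263 CPM. Male mouse 1 thus had the highest sum of all mice, as it had for Ptprc. The part of these cells in the Ptprc difference was not tested.

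Lyz2, a lysozyme of macrophages and neutrophils, rose 16.7-fold in males (adjusted p = 1.79e-08) and 11.6-fold in females (0.000155), the Fc receptor Fcgr1 rose 12.3-fold (1.28e-07) and 6.64-fold (3.5e-05), and the mannose receptor Mrc1 rose 11.6-fold (1.86e-07) and 7.43-fold (3.28e-05). Without female control mouse 3 the log2 fold change of Lyz2 in females was 4.13. Cd14, a co-receptor for bacterial lipopolysaccharide, rose 8.96-fold (7.3e-09) and 7.14-fold (1.91e-05). Mertk, which the kidney itself expresses, was the most abundant gene of the list in controls, at 83.5 CPM in males, and fell in female Alport mice by 0.29 on the log2 scale (adjusted p = 0.00551). The neutrophil marker Ly6g was never above the floor. On NR, 0 of 23 tested passed in the fit of both sexes with edgeR, DESeq2 or limma-voom, and without NR-treated male mouse 1 there were 8 calls. In that fit Cd14 had -0.67 (adjusted p = 0.162) and Mertk 0.22 (adjusted p = 0.141) with all mice. For both sexes, 1 fit of all 32 mice called 1 gene of the list. In females alone DESeq2 called 1, as did edgeR without NR-treated mouse 1.

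Tubule and podocyte markers went the other way for the most part. In vehicle-treated Alport mice 7 of 12 fell and 2 of 12 rose in each sex, where over all genes 3697 of 15286 fell in males and 3431 of 15709 in females, and the summed level was 9873 ± 1138 CPM in males and 11086 ± 2248 CPM in females, against 17268 ± 703 and 17427 ± 1197 CPM in controls. Slc5a12, a lactate transporter of the proximal tubule, fell by 1.27 on the log2 scale in males (adjusted p = 6.22e-06) and by 1.11 in females (0.000887), and Calb1, for calbindin of the distal tubule, fell by 0.75 (0.00201) and by 0.87 (0.00272). Nphs1, for nephrin of podocytes, rose 2.37-fold (2.06e-05) in males and 1.36-fold (0.00307) in females. The sum was 6371, 13104, 7215 and 13728 CPM in Alport males on NR, and in Alport females on NR it was 10601, 10019, 12360 and 13009 CPM. Male mouse 1 had the lowest sum of all 32 mice and male mouse 3 the next lowest. What part a changed share of tubule RNA has in the marker levels was not tested. On NR, Calb1 had 0.56 (adjusted p = 0.232) in the fit of both sexes, where 0 of 12 were called by edgeR, DESeq2 or limma-voom and 1 without NR-treated male mouse 1.

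Markers of perirenal fat and adrenal tissue, which could carry lymphocytes into a sample, were at low levels. The 8 marker genes summed to 5.04 to 6.56 CPM as group means, most of it from Star, and 0 of 1 tested genes in males and 0 of 3 in females were called by edgeR in Alport mice on vehicle. In males 1 gene passed without Alport mouse 2 or without any 1 of the 4 controls, and 1 was called with no low-count filter and in 1 fit of all 32 mice. On NR, Cidec had 1.02 (adjusted p = 0.152) and Star 0.22 (adjusted p = 0.494) in the fit of both sexes.

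In the genome (GRCm38), Cd3g, Cd3d and Cd3e lie together on chromosome 9 within 40056 bases, Cd3g at chr9:44969572-44980431 on the minus strand, Cd3d at chr9:44981786-44987339 on the plus strand and Cd3e at chr9:44998740-45009627 on the minus strand. Cd3g and Cd3d are read away from each other from starts 1354 bases apart, and yet their mRNA differed in pattern. Cd4 (chr6:124864692-124888221, minus) and Cd8a (chr6:71373427-71379173, plus) are on chromosome 6 at a distance from each other. Cd79a is at chr7:24897381-24902197 (plus), Cd79b at chr11:106311341-106314762 (minus), Ms4a1 at chr19:11249675-11266241 (minus) and Ptprc at chr1:138062861-138175708 (minus). Annotated genes overlap Cd3e and Ms4a1 on the opposite strand and Cd3e and Ptprc on the same strand, and since the strand of counting is not given in the sources used here, reads of such transcripts cannot be told apart from those of the members.

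Promoters, from 250 bases before to 50 bases after the start of the transcript, were taken from RefSeq (GRCm38.p6) for the members listed there, 6 of 9 with 7 promoters in all. They were searched on both strands for the letters GGAAGT of the ETS core, CAGGTG of the E-box, TGTGGT of RUNX factors and TTTGCAT of the octamer. The 2 promoters of Ptprc overlap and share 1 match to GGAAGT, which is thus in 4 of these 6 members. GGAAGT was in 5 of the 7 member promoters and in 23.8% of 32851 promoters, CAGGTG in 4 and in 20.2%, TGTGGT in 0 and in 16.8%, and TTTGCAT in 0 and in 4.63%. These letters are short and common, and a match describes the sequence only. The promoters of the 3 CD3 genes, of which Cd3d differed in pattern from the other two, and of Cd79a are given 5′ to 3′, with matches to GGAAGT and CAGGTG or their reverse complements ACTTCC and CACCTG in capitals. They are chr9:44980382-44980681 (minus) for Cd3g, chr9:44981536-44981835 (plus) for Cd3d, chr9:45009562-45009861 (minus) for Cd3e and chr7:24897247-24897546 (plus) for Cd79a.
Cd3g: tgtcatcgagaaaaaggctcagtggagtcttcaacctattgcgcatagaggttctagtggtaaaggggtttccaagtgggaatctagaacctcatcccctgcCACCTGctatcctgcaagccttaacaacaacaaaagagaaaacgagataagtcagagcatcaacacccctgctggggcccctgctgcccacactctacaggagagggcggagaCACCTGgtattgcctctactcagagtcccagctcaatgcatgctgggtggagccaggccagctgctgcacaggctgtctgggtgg
Cd3d: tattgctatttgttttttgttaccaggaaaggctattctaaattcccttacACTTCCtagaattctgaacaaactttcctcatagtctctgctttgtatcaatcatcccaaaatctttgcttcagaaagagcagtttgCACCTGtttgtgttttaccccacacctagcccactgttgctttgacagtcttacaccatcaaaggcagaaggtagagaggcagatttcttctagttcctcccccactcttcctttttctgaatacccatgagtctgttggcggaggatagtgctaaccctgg
Cd3e: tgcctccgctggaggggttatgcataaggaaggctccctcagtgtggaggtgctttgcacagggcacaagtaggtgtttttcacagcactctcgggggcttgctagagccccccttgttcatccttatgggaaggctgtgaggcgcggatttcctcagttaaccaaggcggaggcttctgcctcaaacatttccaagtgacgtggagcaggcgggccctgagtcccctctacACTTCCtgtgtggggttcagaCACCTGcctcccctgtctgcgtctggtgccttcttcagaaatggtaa
Cd79a: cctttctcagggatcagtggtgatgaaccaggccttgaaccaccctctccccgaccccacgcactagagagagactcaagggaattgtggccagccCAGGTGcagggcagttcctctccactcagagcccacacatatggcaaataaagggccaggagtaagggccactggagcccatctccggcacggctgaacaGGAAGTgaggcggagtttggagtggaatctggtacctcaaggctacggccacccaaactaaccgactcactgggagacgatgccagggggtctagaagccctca
Cd3g has 2 E-box matches and no ETS match in this window, and Cd3d, Cd3e and Cd79a have 1 match of each.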

How the data were processed

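The raw counts are used as deposited: the authors processed the reads with BioJupies to counts per gene, and the labels name mm10. The aligner, annotation and strand of counting are not given in the sources used here. The log10(CPM + 1) values were made from the counts by the authors and deposited beside them, and they match the counts to 8.88e-16. Only the counts were tested.

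Each comparison was fitted with edgeR 4.0.16 in R 4.3.3 on its own mice, after filterByExpr (minimum count 10) and TMM scaling, with quasi-likelihood F tests and Benjamini-Hochberg adjustment over all genes tested. A gene is called at an adjusted p under 0.05. DESeq2 1.42.0 and limma-voom (limma 3.58.1) were run on the same genes. Genes that failed the filter were compared by exact permutation of CPM, and correlations by 100000 permutations.

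The members and gene lists were chosen with earlier results of these data known. The rule for named genes was fixed before the files were read: all members, and from each list the 3 genes called in both sexes with the largest change between genotypes and the 2 with the smallest p for NR in both sexes. Exceptions are marked where they stand. Some genes that the rule names are not reported here.

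An earlier version of the analysis used robust dispersions because they came closer to earlier counts of called genes. That was reversed to the edgeR default. Robust dispersions, library totals before the filter, and both together had been compared on the numbers of genes called in 5 comparisons, and they were added as alternatives after the data had been seen. They changed no member call.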

Additional observations from a re-analysis of the deposited data

Results flagged for a closer look

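Cd79a stood out in mouse 1 of both NR-treated Alport groups by the Dixon ratio for 4 samples. Male mouse 1 had 1.42 CPM from 37 counts against 0.116 to 0.269 CPM in the other 3 (ratio 0.883), and female mouse 1 had 1.48 CPM from 33 counts against 0.412 to 0.490 CPM (ratio 0.927). These were 2 of 72 groups tested, where chance gives 1 in 20, or 3.6. Both mice were also highest of their groups for Ptprc, Cd4 and the macrophage list, so the high values are not confined to Cd79a. For Ms4a1, however, female mouse 1 was the lowest of its group, at 0.270 CPM. A technical cause and a mouse with more leukocytes cannot be told apart with these data.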

How the results depend on the processing

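All 9 markers kept their direction between Alport and control mice on vehicle, and the number called there was 7 to 9 in males and 6 to 8 in females when any 1 mouse was left out. With at least 10 counts required in every mouse, 4 markers were tested in males and 4 were called. Where a value below differs from the report, the cause was not tested.

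For NR against vehicle in Alport females DESeq2 called 1 marker. In both sexes together DESeq2 called 1, 1 fit of all 32 mice 1, and leaving out 1 mouse gave 0 to 4. For Alport against control on NR, DESeq2 called 1 in males and 1 fit of all 32 mice called 4. In females limma-voom called 2, the stricter filter 2, and leaving out 1 mouse gave 1 to 5. For female against male controls leaving out 1 mouse gave 0 to 1.

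The labels give replicate numbers but do not say whether these pair the mice. Over 36 pairs of same-numbered mice r was -0.167 to 0.262, and 9 were over 0.1. Such r cannot decide whether same-numbered mice shared a litter or a batch, so the fits were repeated with the replicate number as a block. With the replicate block, Cd8a was called for NR in Alport mice of both sexes (adjusted p = 0.0374), Cd79a in Alport females on vehicle (0.0279) and Cd3d in Alport against control females on NR (0.00801). Ms4a1 in Alport males on vehicle (0.057) and Ighm for NR in both sexes (0.0728) were not, nor were C1qa (0.0701), C1qb (0.0506) and Cd14 (0.061) for NR in male controls. The number of genes called with it was 309 for NR in male controls, 371 for NR in female controls and 377 for Alport against control males on NR. Under that block the log2 fold change turned to -0.0802 for Cd3d with NR in Alport males, to -0.0361 for Cd8a with NR in control males, and to -0.0456 for Cd8a in the interaction of sex and NR.

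Estimates near 0 changed sign. With limma-voom, Cd3d had -0.0451 for NR in Alport males, Cd8a -0.0170 for NR in control males, and in the interaction of sex and NR Cd8a had -0.12 and Ms4a1 0.0175. In the interaction of sex and genotype Cd79b had 8.33e-05 with DESeq2, 0.00228 with RLE size factors and 0.0445 in 1 fit of all 32 mice, where Cd8a had 0.0197.

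With 1 mouse left out, estimates that changed sign ranged as follows. For NR in Alport mice Cd3d had -0.27 to 0.32 in males, -0.58 to 0.0694 in females and -0.23 to 0.0740 in both sexes. For NR in controls Cd3d had -0.37 to 0.27 and Cd8a -0.28 to 0.27 in males, and Ptprc -0.38 to 0.0746 in females. For Alport against control on NR, Cd79b had -0.0218 to 0.96 in males and Cd79a -0.40 to 0.44 in females. In the interaction of sex and genotype Cd4 had -0.41 to 0.13, Cd8a -0.26 to 0.20, Cd79b -0.30 to 0.18 and Ms4a1 -0.80 to 0.15. In the interaction of sex and NR the ranges were -0.66 to 0.0597 for Cd3d, -0.00898 to 0.75 for Cd3e, -0.18 to 0.59 for Cd3g, -0.85 to 0.24 for Cd4, -0.25 to 0.22 for Cd8a, -0.64 to 0.21 for Cd79b, -0.63 to 0.49 for Ms4a1 and -0.70 to 0.42 for Ptprc.

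Without TMM factors, 4 of the group levels moved by more than their SD: Cd3d in vehicle-treated Alport mice to 3.89 CPM in males and 4.69 CPM in females, Cd8a in vehicle-treated Alport females to 4.97 CPM, and Cd79b in vehicle-treated control males to 0.406 CPM. Counts of all genes called moved by over 1.5 times in several settings, for NR in Alport females to 728 with DESeq2 from 75 and for NR in female controls to 18 in 1 fit of all 32 mice from 924.

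With robust dispersions, chosen after seeing the data, the B cell and plasma cell genes called for NR in both sexes went from 4 to 2: Ighm (adjusted p = 0.0521) and Jchain (0.052) were lost. Ighm in Alport females on vehicle was also lost (0.0595). The control counts of Cd3e and Cd3g limit what these depths can show.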
